A study of Mus musculus with 7 samples.

Results

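Open chromatin was examined at 8 genes that mark plasmacytoid dendritic cells (Siglech, Bst2, Ccr9, Zeb2, Cox6a2, Tlr7, Tlr9 and Pacsin1) in 7 ATAC-seq libraries of mouse bone marrow B-lineage populations. Peaks were taken from each library's deposited peak list when they overlapped a gene body or the 20 kb on either side of it, on mm10 (GRCm38) with GENCODE M21 genes. Overlapping peaks of all libraries were merged into regions, which gave 137 regions at the 8 loci out of 145247 in the genome. The loci together spanned 660.49 kb.

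The 3 WT libraries came from Ergfl/fl mice, in which the floxed alleles were intact because no Cre was present. The Erg KO library came from Rag1CreT/+;Ergdelta/delta mice, and the 3 Rescue libraries from Rag1CreT/+;Ergdelta/delta;IgHVH10tar mice, which carry the same deletion together with an immunoglobulin heavy chain allele that is already rearranged. Rag1Cre acts in lymphoid cells from the common lymphoid progenitor onward, so all 4 deleted libraries lack Erg, an ETS-family transcription factor, only from that stage. Each group had 1 library. WT and Rescue were sampled as pre-proB, proB and preB cells, and Erg KO as pre-proB cells only, so that Erg KO below always means pre-proB. Cells were sorted as B220+ and negative for IgM, IgD, NK1.1 and CD11c, and the stages were then separated by surface markers that include CD43 and CD24. The stages of the Rescue libraries follow the sample titles; the source names shift each of them to another stage (the titles pre-proB, proB and preB carry the source names proB, preB and pre-proB), so every result on a Rescue library depends on which label is right. With 1 library per group the spread between animals is unknown, no test was possible, and every difference below is between libraries.

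Plasmacytoid dendritic cells are the main producers of type I interferon in response to viral nucleic acid, which they sense in endosomes through Toll-like receptors. They display B220 and can arise from lymphoid as well as myeloid progenitors, so they lie close to early B-lineage cells in both surface phenotype and origin. Their identity rests on the E protein Tcf4, and B-lineage commitment instead depends on Ebf1 and Pax5.

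The 7 lists held between 76465 and 105649 peaks, and the longest was 1.38 times the shortest. The height of a peak is given as times background, the number of fragments at its summit over the mean number expected genome-wide in that library (3.49 to 4.596 fragments). Its 95% intervals are exact Poisson intervals, which cover counting error only. A region without a peak could hold fragments up to the lowest summit called in that library, 2.61 to 3.09 times background, and ratios against such a region use that level and are lower bounds. Promoter peaks of Pax5 rose from 4.33 times background in WT pre-proB to 34.2 in WT proB and were absent from Erg KO and Rescue pre-proB. Between 30 and 40 peaks lay in Erg itself in every library, including the deleted ones, and the deleted exon was not located here, so accessibility did not check the deletion. Peaks were present at 4 of 4 Y-linked promoters examined in every library, so the X-linked Tlr7 was compared between libraries that all contain Y-bearing cells.

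The windows below illustrate regions that were lower in WT proB than in WT pre-proB, kept their height or were higher. At Bst2, Cox6a2 and Tlr7 other regions of the locus fell by more than the ones printed. Each is up to 200 bases centred on the region's summit, taken from the GRCm38.p6 reference on the plus strand and shortened where it ran into an untranslated region. Capitals mark letters that match one of 7 short motifs searched on both strands: ACNGGAA (ETS), GAGGAAGT (PU.1), CAGCTG and CAGGTG (E-boxes, the sites of E proteins and also, for CAGGTG, of Zeb factors), TGTGGT (RUNX), TCCCNNGGG (EBF1) and GAAANNGAA (IRF). A match is a description of the letters and not evidence of binding.

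The first set holds windows that were highest in the pre-proB libraries. The Siglech upstream window lies at chr7:55765396-55765595, intergenic, with its summit at -2688 from the nearest Siglech start site. The Siglech promoter window is chr7:55768043-55768183. The Bst2 window is chr8:71535760-71535959, in an intron of Bst2 that it leaves for 40 bases of coding exon. The Pacsin1 window is chr17:27656072-27656271, in an intron 584 bases after the nearest start site. The Zeb2 window is chr2:44981721-44981920, intergenic and beyond the 3′ end of Zeb2. The Ccr9 window is chr9:123767111-123767210, just before the main start site, the Cox6a2 window is chr7:128206388-128206447, just before its start site, the Tlr7 window is chrX:167330559-167330635, just before its start site, and the Tlr9 downstream window is chr9:106230358-106230557, intergenic.
Siglech upstream: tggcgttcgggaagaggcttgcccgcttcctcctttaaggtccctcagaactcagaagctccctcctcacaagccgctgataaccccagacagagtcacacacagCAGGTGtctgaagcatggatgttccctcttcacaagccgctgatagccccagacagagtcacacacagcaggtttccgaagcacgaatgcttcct
Siglech promoter: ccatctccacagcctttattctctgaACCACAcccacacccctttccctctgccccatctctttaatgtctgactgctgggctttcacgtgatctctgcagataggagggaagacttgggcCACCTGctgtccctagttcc
Bst2 intron: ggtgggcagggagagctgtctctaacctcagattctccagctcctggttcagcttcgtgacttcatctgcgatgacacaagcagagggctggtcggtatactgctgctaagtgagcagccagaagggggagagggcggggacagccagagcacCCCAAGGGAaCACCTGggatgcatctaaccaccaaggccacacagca
Pacsin1 promoter: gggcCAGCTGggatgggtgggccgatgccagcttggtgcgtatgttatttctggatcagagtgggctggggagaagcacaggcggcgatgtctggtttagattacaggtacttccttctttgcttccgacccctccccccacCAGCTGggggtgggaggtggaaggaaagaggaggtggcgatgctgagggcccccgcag
Zeb2 3′ flank: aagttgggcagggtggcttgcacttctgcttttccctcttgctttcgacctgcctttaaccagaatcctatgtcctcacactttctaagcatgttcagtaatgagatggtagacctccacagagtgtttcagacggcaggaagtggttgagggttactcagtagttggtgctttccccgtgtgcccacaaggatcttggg
Ccr9 promoter: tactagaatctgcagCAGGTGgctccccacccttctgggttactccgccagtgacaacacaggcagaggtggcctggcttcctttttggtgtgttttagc
Cox6a2 promoter: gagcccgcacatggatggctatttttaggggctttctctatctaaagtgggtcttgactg
Tlr7 promoter: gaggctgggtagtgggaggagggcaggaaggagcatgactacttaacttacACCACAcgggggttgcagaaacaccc
Tlr9 downstream: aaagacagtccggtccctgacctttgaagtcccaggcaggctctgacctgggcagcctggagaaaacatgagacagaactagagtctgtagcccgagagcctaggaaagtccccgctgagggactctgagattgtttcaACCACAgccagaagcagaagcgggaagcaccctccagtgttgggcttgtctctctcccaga

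The second set holds 1 window that was high in all 7 libraries and 2 that were higher in the proB and preB libraries. The Tlr9 promoter window is chr9:106222417-106222616, the Zeb2 window is chr2:45114703-45114902, intronic, and the Pacsin1 window is chr17:27708136-27708335, intronic.
Tlr9 promoter: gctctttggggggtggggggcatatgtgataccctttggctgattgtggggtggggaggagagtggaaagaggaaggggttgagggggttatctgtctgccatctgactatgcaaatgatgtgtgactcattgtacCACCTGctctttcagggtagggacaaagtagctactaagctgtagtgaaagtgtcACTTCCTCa
Zeb2 intron: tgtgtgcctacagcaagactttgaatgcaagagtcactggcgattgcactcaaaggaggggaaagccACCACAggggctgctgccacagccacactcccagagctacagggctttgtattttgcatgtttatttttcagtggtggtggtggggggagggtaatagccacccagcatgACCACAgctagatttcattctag
Pacsin1 intron: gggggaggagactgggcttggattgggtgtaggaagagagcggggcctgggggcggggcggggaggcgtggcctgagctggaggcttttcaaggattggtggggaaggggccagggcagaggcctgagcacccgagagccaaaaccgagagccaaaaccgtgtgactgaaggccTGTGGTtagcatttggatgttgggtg

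Summed over the 8 loci, peaks covered more sequence in the 3 pre-proB libraries than in the 4 later ones, and this held at each locus but Ccr9 and Tlr9. Peaks covered 80.2 kb of the loci in WT pre-proB, 84.8 kb in Erg KO and 84.4 kb in Rescue pre-proB. They covered 45.3 kb in WT proB, 45.8 kb in WT preB, 57.0 kb in Rescue proB and 53.8 kb in Rescue preB. Siglech made up the largest part of the drop from WT pre-proB to WT proB, going from 19.95 to 3.86 kb. The whole lists of WT pre-proB and WT proB covered almost the same length, 63.8 and 64.1 Mb. The number of peaks was 107 in WT pre-proB, 116 in Erg KO and 108 in Rescue pre-proB, against 73 in WT proB, 71 in WT preB, 94 in Rescue proB and 87 in Rescue preB. This excess depended on the length of the lists: with every list shortened to its 76465 peaks of highest score, the loci held 77, 76 and 69 peaks in the 3 pre-proB libraries (WT, Erg KO, Rescue), 57 in WT proB, 71 in WT preB, 78 in Rescue proB and 77 in Rescue preB, so that only WT proB stood below all 3. Of the 137 regions, 44 were open in all 7 libraries, 28 in a single library and 65 in between. By position, 17 regions lay at a member's promoter (within 1000 bases of an annotated start site), 56 in a gene body and 64 in a flank, of which 7 lay at the promoter of another gene.

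**Figure D1:**
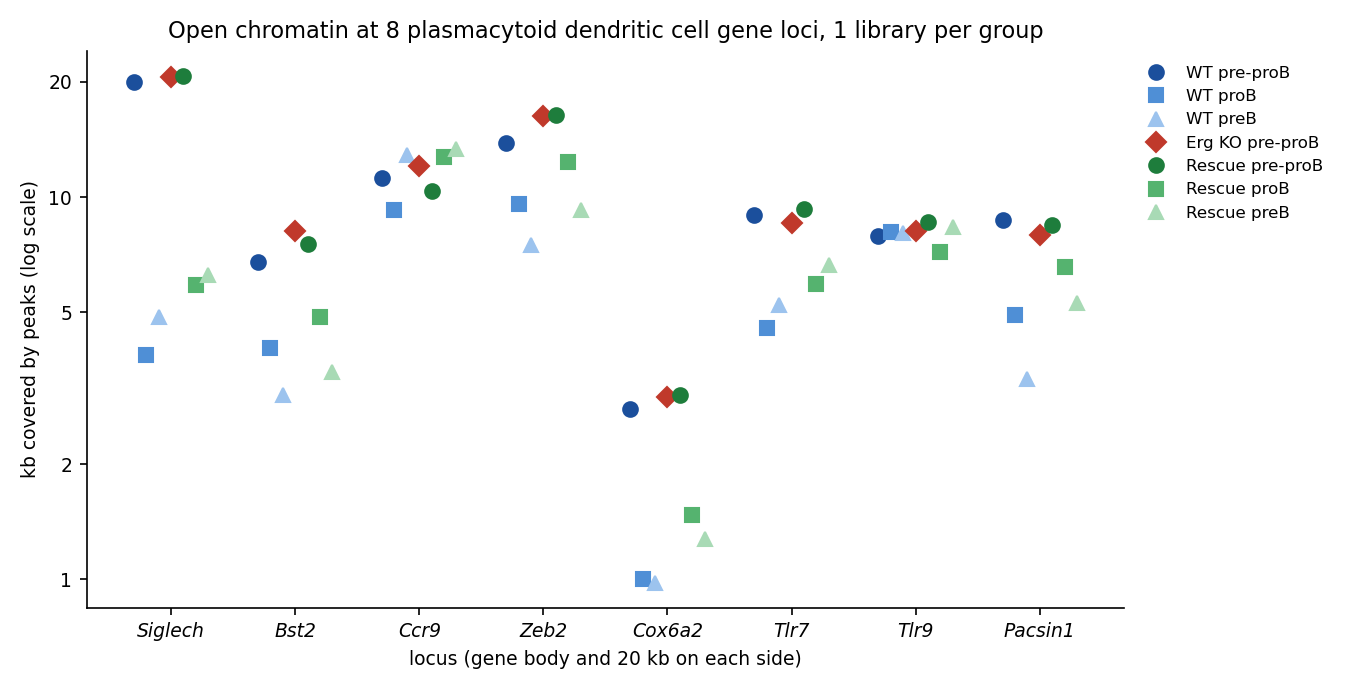
Length covered by peaks (kb, log scale) at each of the 8 loci, gene body and 20 kb on each side, with 1 point per library. At Siglech the 3 pre-proB libraries lie between 19.95 and 20.71 kb and the other 4 between 3.86 and 6.25 kb, and at Tlr9 all 7 lie between 7.20 and 8.60 kb.

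Among 15604 coding gene loci with at least 2 kb covered in some library, 12.1% had at least 1.5 times more covered length in WT pre-proB than in WT proB, and 5 of the 8 members did. The ratio was 5.17 at Siglech, 2.79 at Cox6a2, 1.97 at Tlr7, 1.77 at Pacsin1, 1.67 at Bst2, 1.45 at Zeb2, 1.22 at Ccr9 and 0.974 at Tlr9. The 8 genes were chosen with earlier results of these data known, so their contrast with all coding loci was not tested. At Ccr9, WT preB (12.85 kb), Rescue proB (12.72 kb) and Rescue preB (13.32 kb) had more covered than any pre-proB library (11.23 kb in WT, 12.05 kb in Erg KO and 10.36 kb in Rescue). The length of the loci ran from 40.95 kb at Cox6a2 to 173.8 kb at Zeb2.

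Siglech encodes a sialic acid-binding receptor that is nearly restricted to plasmacytoid dendritic cells in the mouse. It had the widest change of the 8. In WT pre-proB, 4 peaks covered 90.2% of a region of 14929 bases that began before the promoter, ran through the whole gene body and ended beyond its 3′ end (chr7:55766624-55781552). The same stretch was 94.3% covered in Erg KO and 93.2% in Rescue pre-proB. In WT proB a single peak of 577 bases at the promoter was left, 3.86% of the region, and coverage was 7.41% in WT preB, 11.3% in Rescue proB and 14.1% in Rescue preB. The 3 pre-proB libraries and the 4 later libraries did not overlap.

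**Figure D2:**
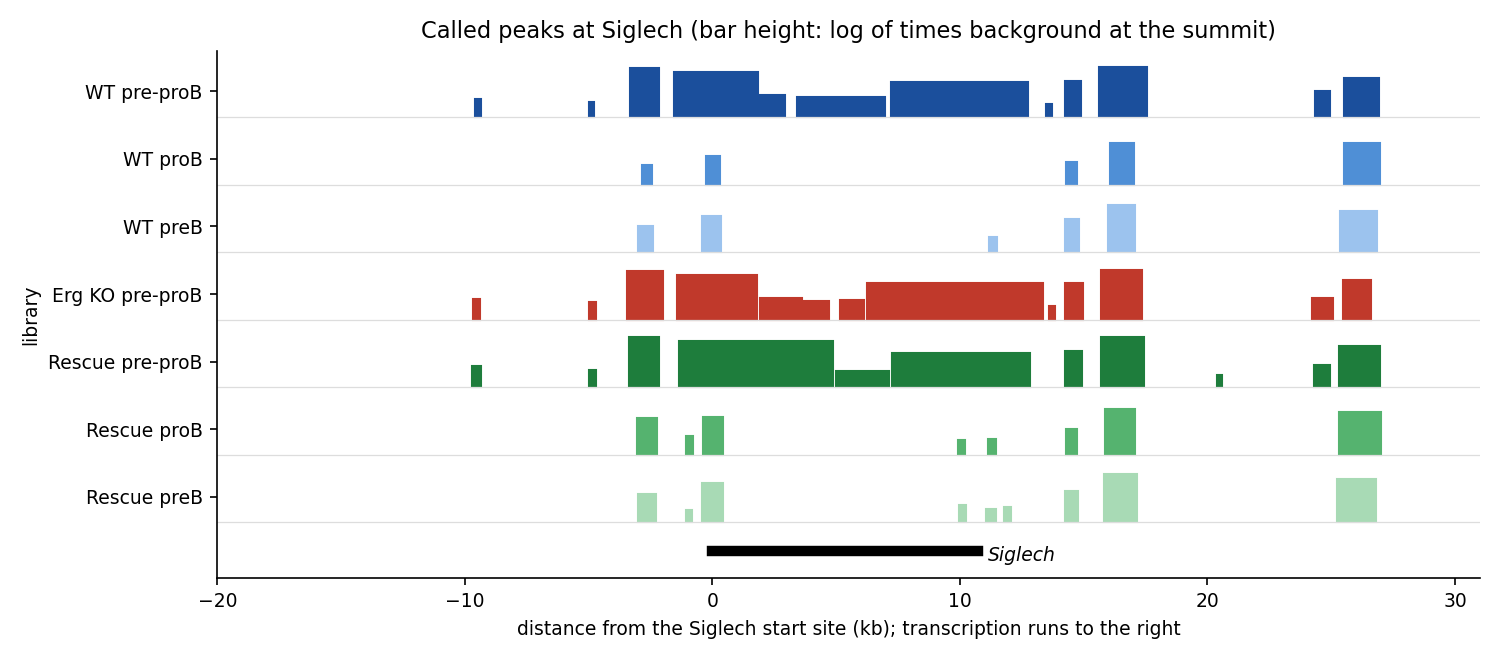
Called peaks of the 7 libraries along the Siglech locus, in kb from the Siglech start site, with bar height proportional to the log of the summit height. The gene body is filled by peaks in the 3 pre-proB libraries, with 90.2% to 94.3% of the broad region covered, and holds isolated peaks in the other 4, with 3.86% to 14.1% covered.

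The Siglech promoter summit stood at 126 times background in WT pre-proB, 126 in Erg KO and 138 in Rescue pre-proB. It stood at 22.6 in WT proB (18.4 to 27.5), 47.4 in WT preB (40.6 to 55.2), 61.6 in Rescue proB and 68.4 in Rescue preB. The promoter therefore had a peak in every library, at lower height after the pre-proB stage. The upstream region (chr7:55764742-55766165), whose window is printed above, had the largest ratio between called peaks of any of the 137: 188 in WT pre-proB (175 to 202) and 8.38 in WT proB (5.90 to 11.6), 22.5-fold lower. Its height was 197 in Erg KO and 216 in Rescue pre-proB, and 16.8 in WT preB, 50.7 in Rescue proB (43.5 to 58.8) and 22.4 in Rescue preB. The region downstream of the gene (chr7:55783807-55785716) was the tallest at the 8 loci and lost less, from 218 in WT pre-proB to 86.7 in WT proB and 154 in WT preB. The flank also takes in the promoter of Tubgcp5, a gene of microtubule nucleation, where heights were 69.3 to 108 in all 7 libraries. A second region at that promoter (chr7:55792414-55793230) is among the regions of this locus that fell: it was at 16.6 in WT pre-proB, 10.3 in Erg KO and 11.1 in Rescue pre-proB, with no peak in the other 4.

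Bst2 encodes tetherin, an interferon-inducible membrane protein that holds budding virions and is recognised by antibodies to plasmacytoid dendritic cell antigen. Its promoter region (chr8:71536910-71538170) was open in every library. Heights there were 61.3, 60.4 and 72.5 in the 3 pre-proB libraries (WT, Erg KO, Rescue), 40.5 and 42.7 in the proB libraries (WT, Rescue) and 44.6 and 41.9 in the preB libraries (WT, Rescue), a range of less than 2-fold. The neighbouring region (chr8:71535444-71536562), with its summit in an intron and its edge still within 1000 bases of the start site, changed more: 100.3 in WT pre-proB, 101 in Erg KO and 112 in Rescue pre-proB against 15.9 in WT proB, 9.26 in WT preB, 26.7 in Rescue proB and 14.6 in Rescue preB. A second region upstream (chr8:71547025-71548340) was at 61.3 in WT pre-proB, 54.3 in Erg KO and 60.9 in Rescue pre-proB. It had no peak in WT proB, at least 22.6-fold lower, none in WT preB or Rescue preB, and a height of 7.16 in Rescue proB.

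Ccr9 encodes the chemokine receptor for Ccl25, which directs plasmacytoid dendritic cells and T-lineage cells to gut and thymus. Its annotated gene body, 105892 bases with the longest transcript, runs across Lztfl1, so many of its 26 regions cannot be assigned to Ccr9. At the main start site (chr9:123766719-123767816) heights were 36.3 in WT pre-proB, 29.8 in Erg KO and 33.3 in Rescue pre-proB. They were 3.62 in WT proB (2.07 to 5.88), 10.02-fold lower than WT pre-proB, 8.70 in WT preB, 12.04 in Rescue proB and 7.54 in Rescue preB. Both of the following intronic regions upstream moved in the same direction. The first (chr9:123756506-123757203) was at 20.7 in WT pre-proB and had no peak in WT proB or WT preB, but stood at 9.17 in Rescue proB and 8.06 in Rescue preB. The second (chr9:123749682-123750154) was at 19.2 in WT pre-proB, had no peak in WT proB, and stood at 6.74 in WT preB, 10.6 in Rescue proB and 13.5 in Rescue preB. Other elements close to the gene held their height, among them the region whose summit lies at -12631 from the nearest start site, at 85.8 to 117 in all 7 libraries. The region at -4135, the tallest of this locus, stood at 122 to 213 and was lowest in WT proB.

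Tlr7 and Tlr9 encode the endosomal sensors of single-stranded RNA and of unmethylated CpG DNA, and both are also used by B cells. Their promoters differed. The Tlr9 promoter (chr9:106220980-106224129) was open in every library and rose along the WT stages, from 96.4 in pre-proB to 115 in proB and 178 in preB cells. It was at 99.4 in Erg KO, and along the Rescue stages at 96.4, 128 and 161. The Tlr7 promoter (chrX:167329868-167331358) was at 21.2 in WT pre-proB, 24.2 in Erg KO and 28.5 in Rescue pre-proB, and at 6.79 in WT proB, with no peak in WT preB and heights of 8.02 in Rescue proB and 7.80 in Rescue preB. The next region into Tlr7 (chrX:167327412-167329775) has its summit in an intron, 1729 bases from the nearest start site. Its edge lies within 1000 bases of that site. This region did not fall: it was at 38.7 in WT pre-proB (33.0 to 45.2), 48.0 in WT proB (41.8 to 54.9) and 63.4 in WT preB. The ratio of WT proB to WT pre-proB was 1.24, with overlapping intervals. Heights were 40.6 in Erg KO, and 46.6, 49.3 and 55.9 along the Rescue stages. In the flank downstream of Tlr9 (chr9:106229844-106230996) heights were 40.9, 45.8 and 52.4 in the 3 pre-proB libraries (WT, Erg KO, Rescue), and 9.06 in WT proB, 14.9 in WT preB, 15.2 in Rescue proB and 25.5 in Rescue preB.

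Zeb2 encodes a zinc finger repressor that binds E-boxes and is required for dendritic cell and monocyte development. Its promoter cluster (chr2:45108495-45114219), which it shares with the antisense transcript Zeb2os, was open throughout, at 39.4, 35.0 and 35.5 in the 3 pre-proB libraries (WT, Erg KO, Rescue), 43.0 and 45.3 in the proB libraries (WT, Rescue) and 63.2 and 75.4 in the preB libraries (WT, Rescue). A neighbouring intronic region (chr2:45114392-45115410) was low in the 3 pre-proB libraries, at 6.25 in WT, 4.94 in Erg KO and 5.22 in Rescue, and high in the others, at 29.9 in WT proB, 41.8 in WT preB, 38.1 in Rescue proB and 51.2 in Rescue preB. Beyond the 3′ end the order was the opposite (chr2:44981487-44982209): 75.03 in WT pre-proB, 100.5 in Erg KO and 100.3 in Rescue pre-proB, then 15.9 in WT proB, 10.4 in WT preB, 32.7 in Rescue proB and 18.5 in Rescue preB. These 2 regions of opposite stage pattern lay near the 5′ end of the gene and in its 3′ flank. The pattern did not divide the locus by position, since regions inside the gene fell as well. An intronic one with its summit 4025 bases from a start site (chr2:45105371-45106823) was at 7.21 in WT pre-proB and had no peak in WT proB. Zeb2 also held 11 of the 28 regions called in a single library, with heights of 2.94 to 5.73, close to the detection limit.

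Cox6a2 encodes a subunit of cytochrome c oxidase found in striated muscle and, among blood cells, in plasmacytoid dendritic cells. Its locus lies within the integrin gene Itgad. The promoter (chr7:128206012-128206581) had a low peak in the 3 pre-proB libraries, at 7.94 in WT, 9.20 in Erg KO and 7.40 in Rescue, and no peak in the other 4. Just downstream of the gene (chr7:128204498-128205254), heights were 20.9 in WT pre-proB, 15.5 in Erg KO and 23.9 in Rescue pre-proB, against 4.30 in WT proB, 8.98 in WT preB, 8.88 in Rescue proB and 7.02 in Rescue preB.

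Pacsin1 encodes an adaptor of endocytosis that plasmacytoid dendritic cells use for interferon production and that is otherwise mainly neuronal. The upstream promoter (chr17:27655138-27657772) fell 10.1-fold, from 70.9 in WT pre-proB (63.1 to 79.5) to 7.02 in WT proB (4.77 to 9.96), and stood at 8.14 in WT preB, 14.6 in Rescue proB and 9.10 in Rescue preB. It was at 74.9 in Erg KO and 71.4 in Rescue pre-proB. Near the 3′ end of the gene 2 regions rose instead. The first (chr17:27707820-27708601) was at 4.09 in WT pre-proB, 4.26 in Erg KO and 5.22 in Rescue pre-proB, and at 14.3 in WT proB, 23.9 in WT preB, 18.3 in Rescue proB and 20.02 in Rescue preB. The second (chr17:27709493-27710607) was at 4.81 in WT pre-proB, 4.71 in Erg KO, without a peak in Rescue pre-proB, and at 18.8 in WT proB, 8.14 in WT preB, 12.04 in Rescue proB and 7.80 in Rescue preB.

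**Figure D3:**
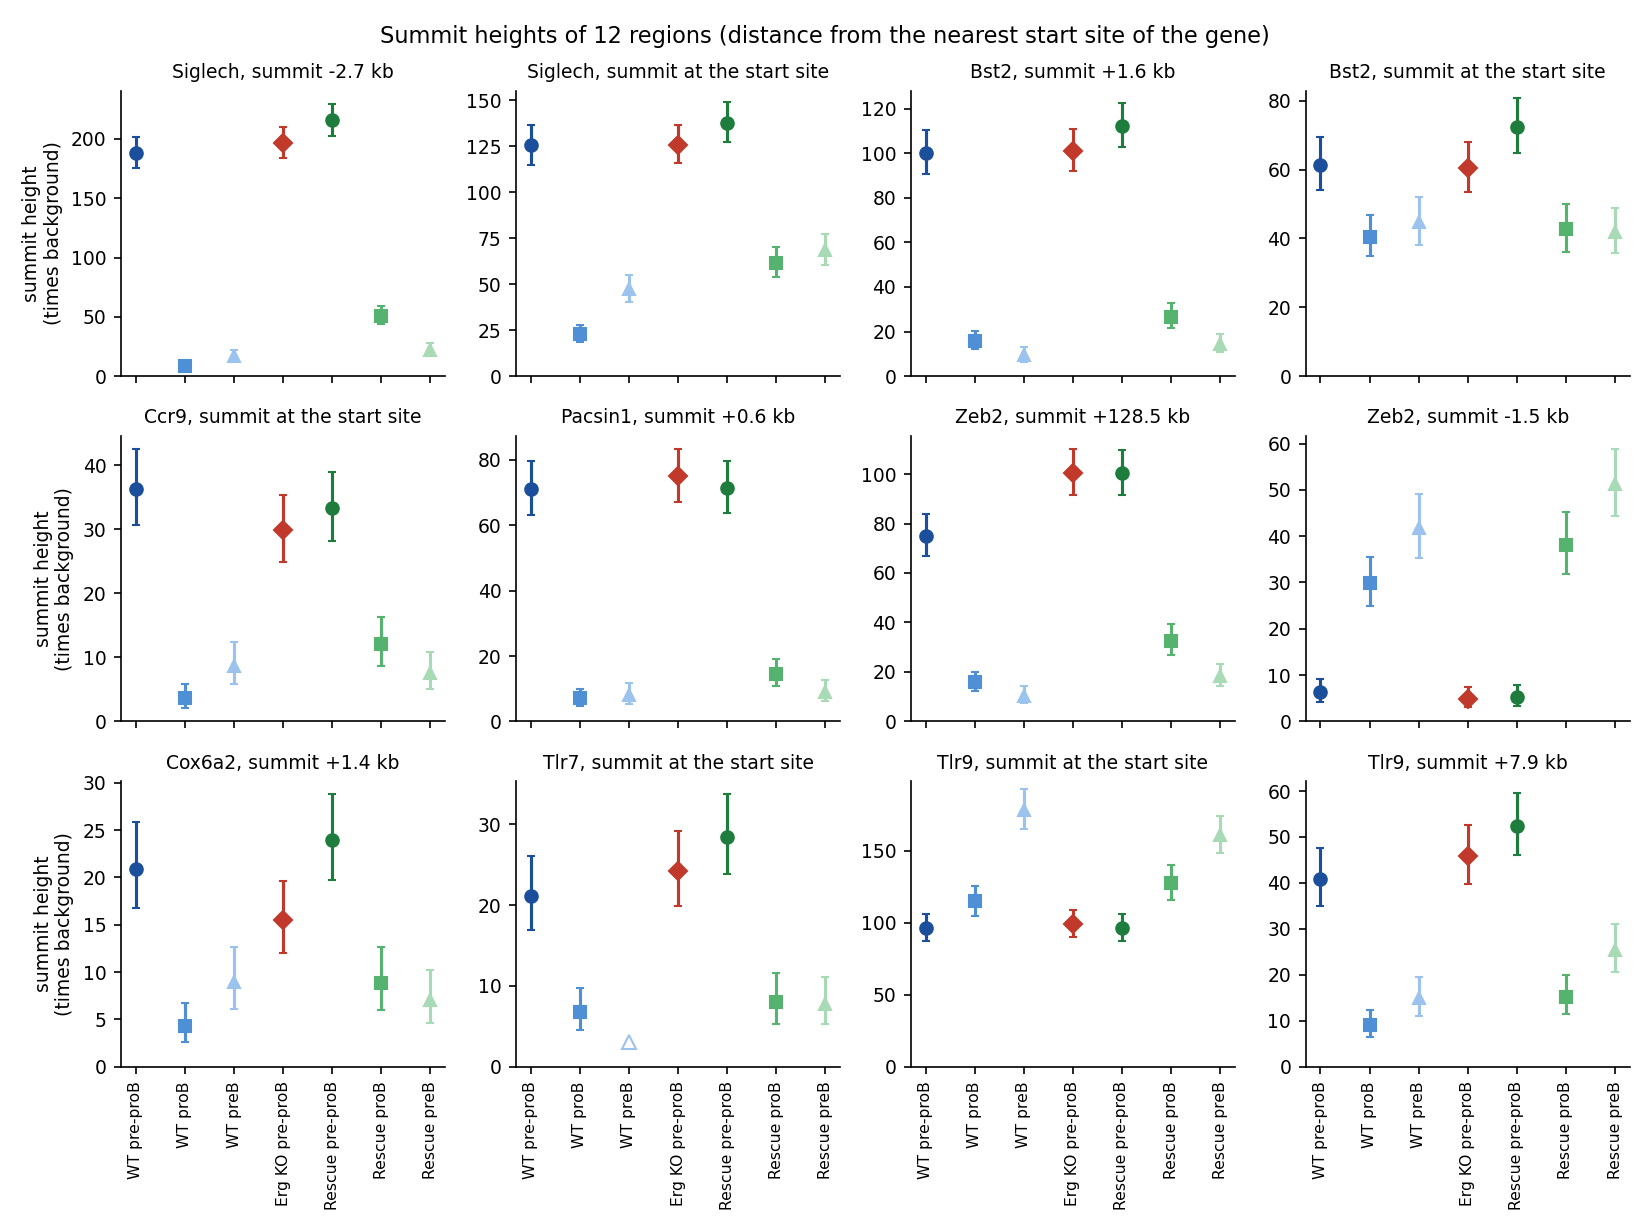
Summit heights (times background) of 12 regions in the 7 libraries, with exact 95% Poisson intervals; the open symbol at Tlr7 marks a library without a peak, set at its lowest called height. In 10 panels the 3 pre-proB libraries lie above the other 4, while the Zeb2 region 1.5 kb before a start site and the Tlr9 promoter show the opposite order.

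For the step from WT pre-proB to WT proB, 106 of the 137 regions had a peak in either library. Of these, 36 (34.0%) were at least 2-fold lower in WT proB, against 26.6% of all regions in the genome tested the same way. Only 6 (5.66%) were at least 2-fold higher, against 18.2% of all regions. The 8 loci thus departed further from the genome in regions that rose than in regions that fell. All 8 loci had regions that fell: 6 each at Siglech, Zeb2 and Pacsin1, 5 at Ccr9, 4 each at Cox6a2 and Tlr7, 3 at Tlr9 and 2 at Bst2. By position, 20 of the 36 lay in a flank, 9 in a gene body and 7 at a member's promoter. Regions with a peak in either library numbered 50, 40 and 16 in the same order. The 6 that rose were 2 at Ccr9, 2 at Pacsin1 and 1 each at Zeb2 and Tlr7. By presence of a peak, 40 regions were open in WT pre-proB and not WT proB (37.7%, against 26.3% of all regions), and 11 the reverse (10.4%, against 23.5%). An ATAC-seq library cannot tell fewer cells with an open region from a lower signal in each cell, so how much of this is a change in the cells sorted at each stage cannot be told apart from a change within cells.

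Most member promoters had a peak at every stage. All 8 members had a promoter peak in the 3 pre-proB libraries, 7 in WT proB, Rescue proB and Rescue preB, and 6 in WT preB. The share over all coding genes was 63.3%, 64.2% and 64.5% in the 3 pre-proB libraries (WT, Erg KO, Rescue), 65.5% and 64.8% in the proB libraries (WT, Rescue) and 61.4% and 63.1% in the preB libraries (WT, Rescue). The promoter without a peak was that of Cox6a2 in all 4 later libraries, and also that of Tlr7 in WT preB. This depended on the promoter width. With 2500 bases on either side of a start site, all 8 members had a promoter peak in every library.

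Between WT proB and WT preB, 74 regions had a peak in either library. Of these, 8 (10.8%) were at least 2-fold higher in WT preB, against 7.73% of all regions, and 6 (8.11%) at least 2-fold lower, against 12.6%. Those that rose included 3 at Siglech and 3 at Ccr9: the Siglech promoter from 22.6 to 47.4, the upstream Siglech region from 8.38 to 16.8 and the Ccr9 start site from 3.62 to 8.70 are given above. All 3 remained below WT pre-proB. A peak was present in WT preB and not WT proB at 8 regions (10.8%, against 8.01% of all regions), and in WT proB and not WT preB at 13 (17.6%, against 24.4%). Over regions open in both libraries the median ratio of WT preB to WT proB was 1.34 at the 8 loci and 1.08 over all regions, so part of the rise was shared by the genome.

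Between WT and Erg KO pre-proB cells hardly any region of these loci differed by 2-fold. Of 114 regions with a peak in either library, 1 was at least 2-fold higher in Erg KO than in WT pre-proB (0.877%, against 1.57% of all regions) and 0 were at least 2-fold lower (against 1.7%). The 1 region was an intronic region of Zeb2 (chr2:45047410-45047800) at 6.51 in Erg KO and 7.40 in Rescue pre-proB, with no peak in WT pre-proB or in any later library. Over the 87 member regions open in both libraries the ratio of Erg KO to WT pre-proB had a median of 1.01 and ran from 0.536 to 1.63. A peak was present in Erg KO and not WT pre-proB at 19 regions (16.7%, against 12.5% of all regions) and in WT and not Erg KO at 8 (7.02%, against 5.58%), and none of them but the Zeb2 region passed 2-fold. With only peaks of a −log10 q of at least 10 counted, 9 regions passed 2-fold as higher and 6 as lower in Erg KO. The same numbers of regions had a peak in 1 library and not the other under that setting. A peak below the minimum was set at the lowest height of the full list, so such ratios are not lower bounds. The same sorted stage gave promoter peaks at Vpreb1 (10.3 times background), Pou2af1 (8.90) and Cd79a (14.0) in WT pre-proB and none in Erg KO. These 3 were chosen after their values were seen, and other promoters of that list were near level, such as Ebf1 (WT pre-proB 26.5, Erg KO 29.6).

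**Figure D4:**
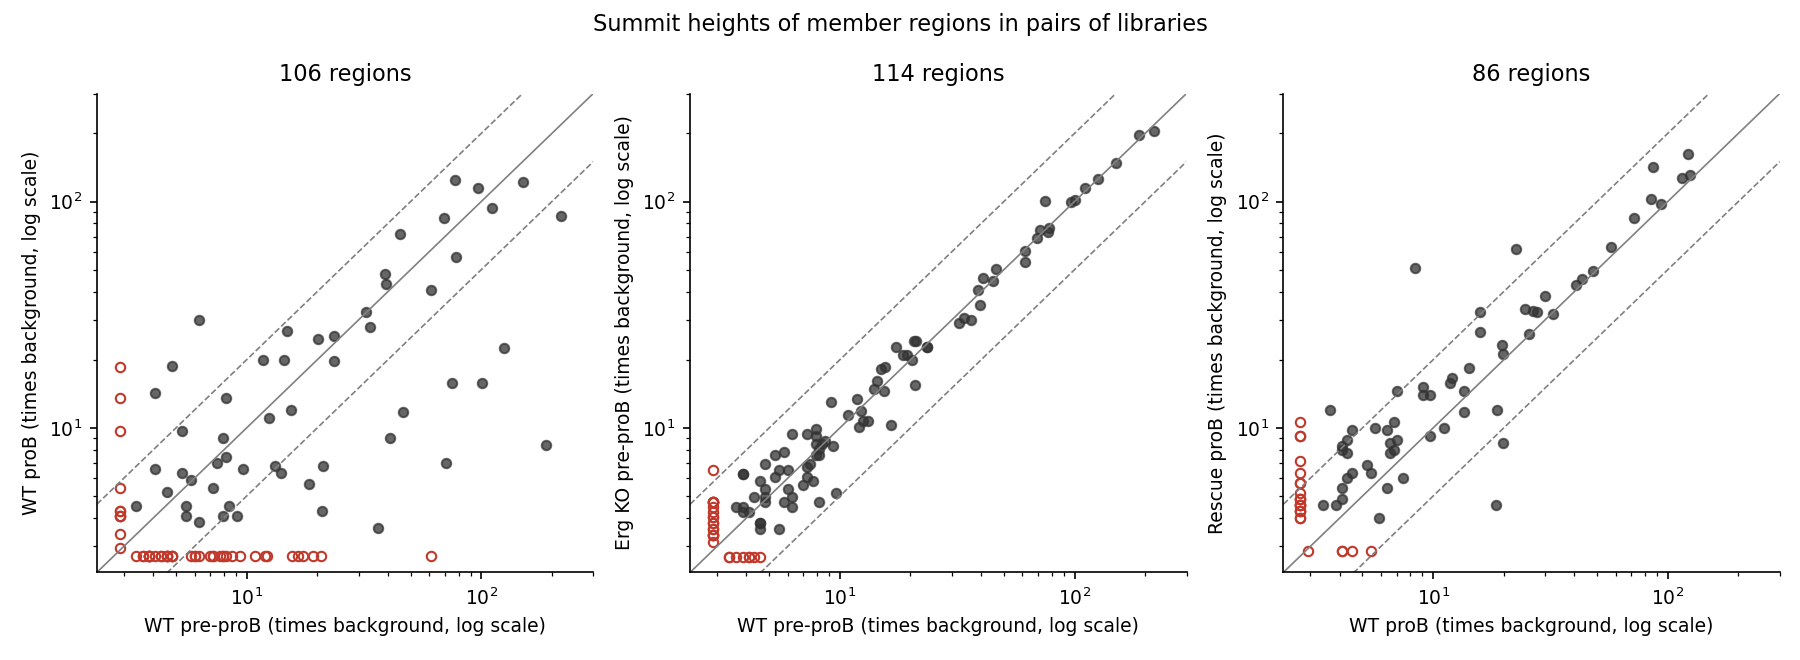
Summit heights of member regions in 3 pairs of libraries (times background, both axes log scale), with filled points for regions open in both and open red points for regions with a peak in 1 library, set at the other's lowest called height. Solid lines mark equality and dashed lines 2-fold; 36 of 106 regions fall below the lower dashed line for WT proB against WT pre-proB, 0 of 114 for Erg KO against WT pre-proB, and 15 of 86 lie above the upper line for Rescue proB against WT proB.

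The library titled Rescue pre-proB resembled the other pre-proB libraries. Of 107 regions, 2 were at least 2-fold higher than in WT pre-proB (1.87%, against 2.1% of all regions) and 0 at least 2-fold lower (against 1.71%). They were the same intronic Zeb2 region and a region at -19271 from the annotated start of Ccr9, 5.88 times background high. The median ratio was 1.07 at the loci and 1.10 over all regions, a genome-wide shift of 0.13 on the log2 scale that the loci shared. Peaks were present in Rescue pre-proB and not WT pre-proB at 12 regions (11.2%, against 14.7%) and the reverse at 5 (4.67%, against 4.6%). Against Erg KO, 0 of 118 regions were at least 2-fold higher (against 1.08% of all regions) and 1 was at least 2-fold lower (0.847%, against 0.543%), an intronic region of the Ccr9 locus at 5.38 times background in Erg KO. With stages taken from the source names instead, 12 regions were at least 2-fold higher and 32 lower in Rescue than in WT pre-proB.

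At the proB stage more regions differed between Rescue and WT. Of 86 regions, 15 (17.4%) were at least 2-fold higher in Rescue proB than in WT proB, against 12.1% of all regions, and 2 (2.33%) at least 2-fold lower, against 9.79%. The largest was the upstream Siglech region at 50.7 against 8.38, a ratio of 6.06. Others were the Ccr9 start site (12.04 against 3.62), the Siglech promoter (61.6 against 22.6), the Pacsin1 upstream promoter (14.6 against 7.02), the Zeb2 3′ flank (32.7 against 15.9) and the region downstream of Cox6a2 (8.88 against 4.30). With the source names, 39 regions were higher and 8 lower than in WT proB. By locus the 15 comprised 4 at Ccr9, 4 at Zeb2, 2 at Siglech, 2 at Cox6a2 and 1 each at Bst2, Tlr7 and Pacsin1, with none at Tlr9. Rescue preB differed less from WT preB: of 74 regions, 6 (8.11%) were at least 2-fold higher, against 5.69% of all regions, and 1 (1.35%) at least 2-fold lower, against 2.5%.

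The 36 regions that were lower in WT proB than in WT pre-proB were then followed through the libraries that did not choose them. All 36 were open in Erg KO and in Rescue pre-proB, as were 99.3% and 99.5% of all regions in the genome chosen the same way. In WT preB 17 were open (47.2%), in Rescue proB 25 (69.4%) and in Rescue preB 20 (55.6%). Over those 31507 regions, 28.4% were open in WT preB, 59.7% in Rescue proB and 38.8% in Rescue preB, so the excess in Rescue proB over WT preB was found across the genome. The regions had been chosen for a low WT proB value, so WT proB itself is not a fair comparison and WT preB was used. Of the 36, 10 (27.8%) were at least 2-fold higher in Rescue proB than in WT proB, which is close to the 28.5% of all 31507, and 0 were at least 2-fold lower (0.194% of all). The choice of regions with a low WT proB value favours a higher Rescue proB in both shares. At Siglech 4 of 6, at Tlr9 2 of 3 and at Cox6a2 1 of 4 had a peak in Rescue proB. At the other genes the numbers in Rescue proB were 6 of 6 at Zeb2, 4 of 5 at Ccr9, 3 of 6 at Pacsin1, 3 of 4 at Tlr7 and 2 of 2 at Bst2.

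**Figure D5:**
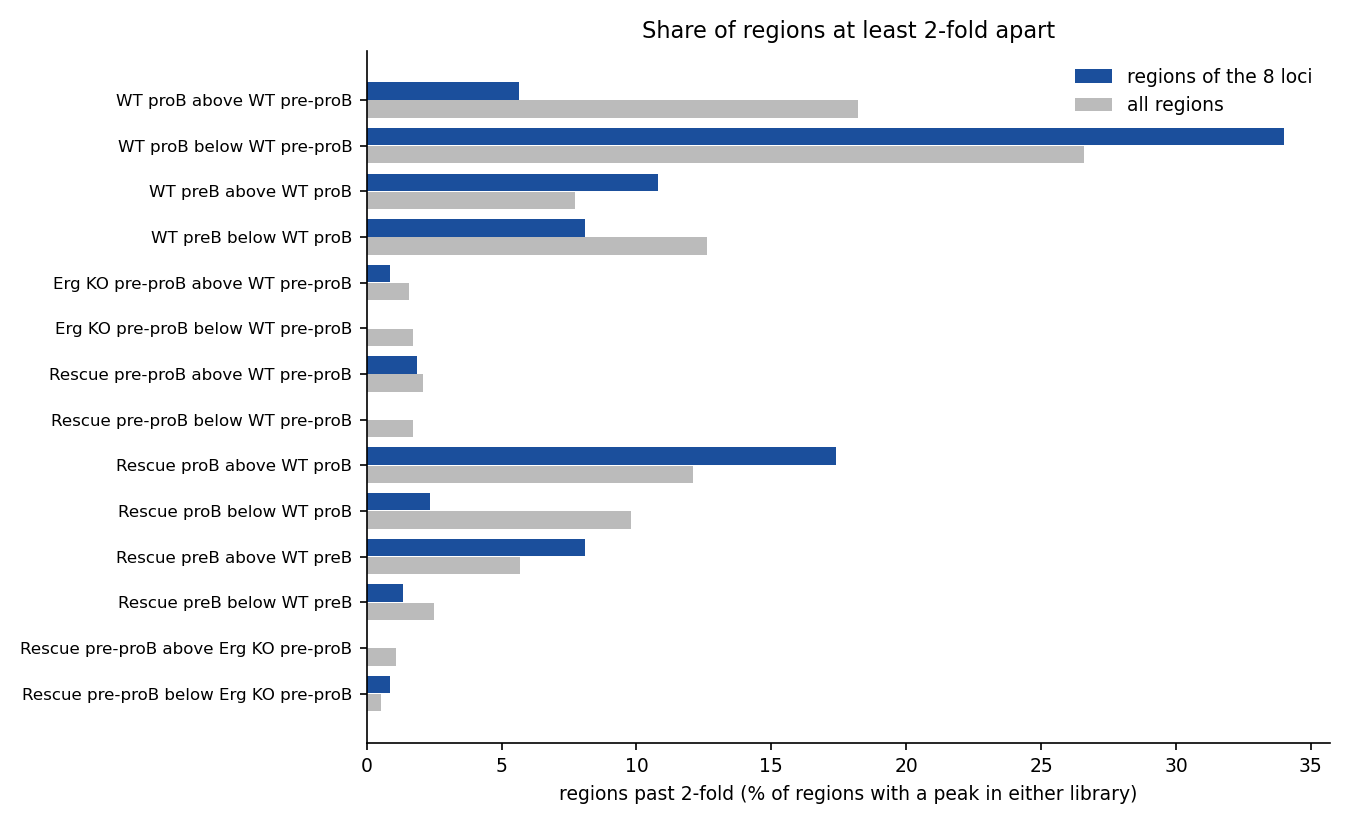
Share of regions at least 2-fold apart in each comparison (percent of regions with a peak in either library), for the 8 loci and for all regions. The loci exceed the genome for WT proB below WT pre-proB (34.0% against 26.6%) and Rescue proB above WT proB (17.4% against 12.1%), and fall short of it for WT proB above WT pre-proB (5.66% against 18.2%).

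Regions open in all 3 pre-proB libraries and in no other numbered 18 of 137 (13.1%), against 11.5% of all regions. There were 4 each at Zeb2 and Pacsin1, 3 each at Siglech and Cox6a2, 2 at Bst2, 1 each at Tlr7 and Tlr9, and 0 at Ccr9. Those open in all 4 later libraries and in no pre-proB library numbered 2 (1.46%), against 5.19%: an intronic region of the Ccr9 locus at 4.30 to 6.02 times background, and a region in the 3′ flank of Tlr7 (chrX:167293679-167294281) at 13.6 to 17.7.

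In sequence, the 36 regions held the E-box CAGGTG more often than the rest. It was found in 17 of 36 windows (47.2%), against 22.7% of the 31507 windows that fell across the genome, 29033 of all 145247 windows and 19 of the 101 other member windows (18.8%). It is in the Siglech upstream and promoter windows and the Ccr9 window printed above, with CACCTG being the same motif on the other strand, and in the Bst2 window. The windows with it numbered 4 of 6 at Siglech, 3 of 6 at Zeb2, 3 of 4 at Cox6a2, 2 of 6 at Pacsin1, 2 of 5 at Ccr9, 2 of 3 at Tlr9, 1 of 2 at Bst2 and 0 of 4 at Tlr7. Windows of 1 locus are not independent, and the motif was singled out among the 7 after its counts were seen. The other motifs were found in these windows at 27.8% for CAGCTG (27.1% across the genome), 30.6% for TGTGGT (36.9%), 13.9% for ACNGGAA (16.6%), 5.56% for GAGGAAGT (10.5%), 8.33% for TCCCNNGGG (1.43%) and 2.78% for GAAANNGAA (13.1%). For GAAANNGAA the 2.78% is 1 window, and for TCCCNNGGG the 8.33% is 3. The median GC content of the 36 windows was 51.2%, against 47.5% for those across the genome.

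Most promoters of other genes of the same cell type also had a peak at every stage. Of 14 further genes of plasmacytoid dendritic cells, 13 had a promoter peak in the 3 pre-proB libraries and Rescue proB, 12 in WT preB and Rescue preB and 11 in WT proB. Klk1, a kallikrein protease, was at 51.5, 50.5 and 57.7 times background in the 3 pre-proB libraries (WT, Erg KO, Rescue) and at 6.30 in Rescue proB, with no peak in the other 3. Ly6c2, a surface antigen of plasmacytoid dendritic cells and monocytes, was at 24.8, 20.6 and 32.6 in the same 3 pre-proB libraries, had no peak in WT proB, and was at 4.49 in WT preB, 10.9 in Rescue proB and 8.32 in Rescue preB. Upb1 had no promoter peak in any library. Promoters of 3 regulators, chosen after their values were seen, did not share a direction. Irf8, needed for dendritic cell development, was at 79.4 in pre-proB, 34.2 in proB and 44.6 in preB cells of the WT. Spib, an ETS factor of plasmacytoid dendritic cells and B cells, was at 59.4, 102 and 223 along the same stages, and Tcf4 at 74.3, 97.8 and 166. The endosomal Toll-like receptor pathway (12 genes, among them Unc93b1, Myd88 and Irf7) had 12 open promoters in every library except WT preB and Rescue proB, with 11, where the interferon gene Ifnb1 had no peak; Ifnb1 was at 4.09 to 6.76 elsewhere.

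Markers of conventional dendritic cells were divided. All 8 promoters of that list were open in the 3 pre-proB libraries, 4 in WT proB, 5 in WT preB, 7 in Rescue proB and 6 in Rescue preB. Clec9a, a receptor of cross-presenting dendritic cells, was at 101, 94.7 and 114 in the 3 pre-proB libraries (WT, Erg KO, Rescue), had no peak in WT proB or WT preB, and was at 40.4 in Rescue proB and 36.7 in Rescue preB. Itgax, which encodes the CD11c that the sort gated against, was at 35.1, 37.0 and 38.3 in the 3 pre-proB libraries and 6.30 in Rescue proB, with no peak in WT proB, WT preB or Rescue preB. Cd209a had a peak in the 3 pre-proB libraries alone, at 13.5 to 16.5. Xcr1 had no peak in WT proB but stood at 41.3 in WT preB, near its 38.7 in WT pre-proB. Zbtb46, a transcription factor of conventional dendritic cells, went the other way along the WT stages, from 10.8 to 43.5 and 67.7, and Batf3, Flt3 and Ciita differed by less than 2-fold among the WT libraries. Open chromatin is not protein, and the part that CD11c-low dendritic cells may have in the pre-proB sorts was not tested. Of the myeloid markers 3 or 4 of 8 promoters were open in every library, with Elane, S100a8 and Ly6g at none and the neutrophil gene Mpo at 3.92 in Rescue pre-proB alone. Among them Itgam, which encodes CD11b, fell with the dendritic cell loci, from 34.4, 31.2 and 36.1 in the 3 pre-proB libraries (WT, Erg KO, Rescue) to 4.76 in WT proB, 6.46 in WT preB, 10.9 in Rescue proB and 9.10 in Rescue preB. Other promoters of the myeloid list did not follow it. Csf1r rose along the WT stages, from 8.90 to 15.6 and 17.4. Lyz2 went from 6.25 in WT pre-proB to 8.83 in WT proB, with no peak in WT preB. Cebpe had a peak only in WT preB, Rescue proB and Rescue preB, at 5.46 to 8.31. Erythroid markers were at 3 of 6 in every library. T-cell markers were at 3 of 6 in WT pre-proB, WT proB and Rescue proB, 5 in Erg KO and Rescue pre-proB and 1 in WT preB and Rescue preB, with no Cd3e peak in any. Cd8a was at 23.6, 24.9 and 36.6 in the 3 pre-proB libraries (WT, Erg KO, Rescue) and 8.60 in Rescue proB, with no peak in the other 3. Cd3g also fell, from 12.7 in WT pre-proB to no peak in WT proB. Other T-cell markers rose between the same WT stages, Lck from 14.9 to 27.85, and Bcl11b and Cd4 from no peak to 8.83 and 3.62. In WT preB Lck was at 10.7, and Bcl11b and Cd4 had no peak. NK-cell markers were at 3 of 6 in WT pre-proB and Erg KO, 4 in Rescue pre-proB, 5 in WT proB and Rescue proB, 2 in WT preB and 1 in Rescue preB, with no Ncr1 peak in any. Klrb1c, which encodes the NK1.1 that the sort also gated against, was at 48.8, 42.9 and 60.3 in the 3 pre-proB libraries, 6.57 in WT proB and 3.73 in Rescue proB, with no peak in WT preB or Rescue preB. Nkg7 also fell, from 9.62 in WT pre-proB to 5.66 in WT proB and no peak in WT preB. Other NK-cell markers went the other way between WT pre-proB and WT proB. Eomes rose from 4.81 to 9.74, and Tbx21 and Gzma went from no peak to 6.11 and 8.15. The part of such cells in the results was not tested either. The B-lineage list went the other way, with 9 of 10 promoters open in WT pre-proB, 5 in Erg KO, 6 in Rescue pre-proB and 10 in each of the 4 later libraries.

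Likeness to the members was measured as Pearson's r of covered length over the 7 libraries, for the 2 members whose covered length varied at least 3-fold. Among 2228 loci compared with Siglech, the highest r were 0.998 for Cybb, which encodes a subunit of the phagocyte NADPH oxidase, 0.998 for Ptprs, a receptor phosphatase of plasmacytoid dendritic cells, and 0.996 for Trit1. Cybb had 13.1 kb covered in WT pre-proB, 13.5 kb in Erg KO and 13.3 kb in Rescue pre-proB, and 3.27 kb in WT proB, 4.54 kb in WT preB, 5.30 kb in Rescue proB and 5.40 kb in Rescue preB. Among 16505 loci compared with Cox6a2, Chil5, Pifo and Vopp1 reached 0.999, and Chil5 and Pifo lie on the same chromosome. The 7 points fall into a pre-proB and a later cluster, so such an r describes that split and little else.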

How the data were processed

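ATAC-seq peaks of 7 libraries, 1 per group, were analysed; the tool names and the CASAVA version 1.8.2 are from the submitters' processing notes. Per the methods of the study, reads were aligned to mm10 with Bowtie2 and peaks called with MACS2; the sources used here do not give versions or options, and the study's methods name sonication where the labels' protocol names Tn5. Each deposited list holds, for every peak, a score, a fold (a ratio of summit to background pileup), a −log10 p-value and a −log10 q-value, as the authors made them, and the summit's offset. All folds of a library were whole multiples of 1 step (within 0.02 of a step), which gave the background and the summit pileup in fragments. Read depth is not in the lists; the background pileup of 3.49 to 4.596 fragments stands for it. More fragments narrow the counting error and lower the smallest height that can be called.

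Peaks of all libraries overlapping by at least 1 bp were merged to regions, and a region's height in a library is that of its tallest peak. A promoter is 1000 bp on either side of a GENCODE M21 start site. A region was counted as higher or lower at a ratio of at least 2 between libraries. All 8 genes are named. For each, the promoter regions, the tallest region and regions past 2-fold in the Erg KO or Rescue pre-proB comparison could be given with full values. Up to 4 regions by size of the WT pre-proB to proB ratio could be given as well. Genes of the marker lists were named mainly where their promoter was open in only some libraries, with some others that were open in all. The genes and lists were chosen with earlier results of these data known. The arithmetic was tested on simulated data. Python 3.11.15, numpy 2.4.6, pandas 2.3.3 and scipy 1.17.1 were used. Alternatives were shorter lists, a q-value minimum, other flanks, promoter widths and overlaps, another level for regions without a peak, ranks, and Rescue stages by source name. Motifs were searched in windows of 200 bases of GRCm38.p6. Sequence overlapping untranslated regions was left out of the printed windows beyond 30 bases.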

Additional observations from a re-analysis of the deposited data

Results flagged for a closer look

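In 2 member regions the change between stages was at least 2-fold one way in WT and at least 2-fold the other way in Rescue. Smaller reversals were not counted, such as the Ccr9 start site from proB to preB (3.62 to 8.70 in WT, 12.04 to 7.54 in Rescue). With 1 library per stage the difference was not tested, and it depends on the Rescue titles. In an intron of Zeb2 (chr2:45022541-45023088) the ratio of proB to pre-proB was 0.332 in WT, where the peak of 8.18 times background had gone, and 2.11 in Rescue, where it went from 4.35 to 9.17. In the region upstream of Siglech (chr7:55764742-55766165) the ratio of preB to proB was 2.01 in WT and 0.441 in Rescue.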

How the results depend on the processing

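Of 331 values recomputed under alternative settings, 213 stayed within 1.5 times of the reported ones and 118 did not. Most of the 118 are small counts. The 213 include all 70 for the further plasmacytoid dendritic cell genes and the endosomal Toll-like receptor pathway. The other marker lists have no such values, so how far their counts depend on the settings is not known. No paired analysis was possible because each group has 1 library. In every setting that used the title stages, WT proB had more regions lower than WT pre-proB than higher.

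With Rescue stages from the source names, the Rescue results changed. Then 12 regions were higher and 32 lower in Rescue than WT pre-proB, 18 higher and 31 lower than Erg KO, 39 higher and 8 lower than WT proB and 15 higher and 3 lower than WT preB, and 35 were open in WT and not Rescue pre-proB.

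The other values are given per setting, and pairs are higher then lower counts. With shortened lists or the q minimum, a dropped peak was still set at the lowest height of the full list. Ratios against it are then not lower bounds, and an unshared region passes 2-fold easily. For Erg KO against WT pre-proB the counts past 2-fold equalled the unshared counts in each of these settings.
Lists of 76465 peaks left 77, 76 and 69 peaks in the pre-proB libraries (WT, Erg KO, Rescue), against 57 in WT proB, 71 in WT preB, 78 in Rescue proB and 77 in Rescue preB, so the excess of the pre-proB libraries was left against WT proB only, with counts past 2-fold of 7 and 7 for Erg KO against WT pre-proB, 4 and 7 for Rescue against WT pre-proB and 1 and 4 for Rescue against Erg KO, and 2 lower in Rescue than WT preB. By presence, 7 were open in Erg KO and not WT pre-proB, 4 in Rescue and not WT pre-proB, 17 in WT preB and not proB and 6 the reverse.
Lists of 38232 peaks left 39, 30 and 35 peaks in the WT pre-proB, proB and preB libraries, 37 in Erg KO and 35, 35 and 39 in the Rescue ones, and 4 promoters in WT proB. Counts were 20 lower in WT proB than pre-proB, 2 lower in Erg KO and 1 and 2 in Rescue against WT pre-proB, 1 higher in Rescue than Erg KO, 9 and 4 for Rescue against WT proB and 0 lower in Rescue preB. By presence, 16 were open in WT pre-proB and not proB, 5 in WT proB and not preB, 1 in Erg KO and 1 in Rescue but not WT pre-proB, and 2 and 2 the reverse.
A −log10 q of at least 10 left 75 peaks in Erg KO and 60 in Rescue proB. Counts were 10 higher in WT proB than pre-proB, 9 and 6 for Erg KO and 8 and 4 for Rescue against WT pre-proB, 4 higher in Rescue than Erg KO, 5 lower in Rescue proB and 3 lower in Rescue preB than WT. By presence, 9 were open in Erg KO and not WT pre-proB and 6 in WT proB and not preB.
Gene bodies alone held 62, 40 and 39 peaks in WT pre-proB, proB and preB, 65 in Erg KO and 60, 54 and 49 in Rescue. Counts were 16 lower in WT proB, 4 higher in WT preB than proB, 1 higher in Rescue pre-proB and 9 and 1 for Rescue against WT proB. By presence, 23 and 6 were unshared between WT pre-proB and proB, 6 and 4 between WT proB and preB, 4 and 10 between WT and Erg KO and 2 and 7 between WT and Rescue pre-proB.
With 50 kb flanks, peaks numbered 118 in WT proB, 117 in WT preB, 143 in Rescue proB and 132 in Rescue preB. Counts were 14 and 61 for WT proB against pre-proB, 13 higher in WT preB, 3 and 1 for Erg KO and 4 and 2 for Rescue against WT pre-proB, 2 lower in Rescue than Erg KO and 6 lower in Rescue proB. By presence, 20 were open in WT proB and not pre-proB, 21 in Rescue and not WT pre-proB and 10 the reverse.
With missing peaks set at background, which counts nearly every unshared region, counts were 14 higher in WT proB, 13 and 15 for WT preB against proB, 19 and 8 for Erg KO and 12 and 5 for Rescue against WT pre-proB, 12 and 16 for Rescue against Erg KO, 28 and 7 for Rescue proB and 14 and 2 for Rescue preB.
By rank, with 25 points as the threshold, counts were 4 higher in WT preB than proB, 3 higher in Erg KO, 4 and 1 for Rescue against WT pre-proB, 0 lower in Rescue than Erg KO and 2 lower in Rescue preB.
With 50% reciprocal overlap, unshared counts were 63 and 29 between WT pre-proB and proB, 13 open in WT preB and not proB, 20 and 29 between WT and Erg KO and 20 and 21 between WT and Rescue pre-proB.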
